A study of Mus musculus with 10 samples.

Results

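The genes described here are the enzymes, regulators and carrier through which cells make cholesterol and fatty acids, 35 genes in all. They were taken by gene symbol from a written list, all 35 were found among the 55401 genes of the deposited count table, and all 35 were among the 17464 genes with enough reads to test. They comprise 17 enzymes of sterol synthesis, 13 enzymes of fatty acid synthesis, desaturation and elongation, and 5 genes for regulators of the pathway and sterol transport. RNA was sequenced from 10 subcutaneous tumors, all grown in the flanks of obese male C57BL/6J mice fed a diet with 60% of calories from fat. Per the methods of the study, these 10 samples remained after a quality filter. The mice had been injected with 75000 KPN1.1 cells at 7 to 17 weeks of age. KPN1.1 is a mouse lung adenocarcinoma cell line that carries the NINJA neoantigen construct. From the time that tumors could be felt, 1 group (5 tumors) received liraglutide, an agonist of the glucagon-like peptide-1 receptor, at 0.2 μg per g of body weight each day into the peritoneum, and the other (5 tumors) received vehicle (PBS). Tumors were collected 19 to 22 days after injection. All tumors came from a single cell line in the flank of the mouse, not the lung, and tumors of lean mice are not part of the comparison. The comparison asks whether liraglutide altered the RNA of lipid synthesis genes in tumors of obese mice.

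Cells build cholesterol from acetyl-CoA. The mevalonate pathway makes isoprenoid units, squalene is assembled from them and closed to lanosterol, and a further series of enzymes trims lanosterol to cholesterol. Fatty acids start from the same acetyl-CoA, which Acly and Acss2 supply, with NADPH from enzymes such as Me1. The transcription factors encoded by Srebf1 and Srebf2 switch on both pathways when membrane sterol is low. Scap escorts them from the endoplasmic reticulum and Insig1 holds them there when sterol is plentiful. In tumors and in fat tissue the same genes provide membrane and storage lipid.

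The promoters of 4 genes from different steps are shown as examples. They are the 250 bases before the annotated start, from RefSeq on GRCm38.p6, written 5′ to 3′ on the strand of the gene. Capitals mark the motifs TCACNCCAC (a core of the sterol regulatory element), CCAAT (the CCAAT box, bound by NF-Y) and CACGTG (an E-box), each on either strand. In Fasn a CCAAT box on each strand overlap by 2 bases.
Hmgcs1, chr13:119690101-119690350, plus strand: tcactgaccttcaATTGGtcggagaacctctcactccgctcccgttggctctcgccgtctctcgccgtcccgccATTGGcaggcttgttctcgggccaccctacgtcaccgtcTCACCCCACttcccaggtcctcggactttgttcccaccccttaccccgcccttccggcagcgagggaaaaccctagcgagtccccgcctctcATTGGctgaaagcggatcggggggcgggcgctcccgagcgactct
Cyp51, chr5:4104698-4104947, minus strand: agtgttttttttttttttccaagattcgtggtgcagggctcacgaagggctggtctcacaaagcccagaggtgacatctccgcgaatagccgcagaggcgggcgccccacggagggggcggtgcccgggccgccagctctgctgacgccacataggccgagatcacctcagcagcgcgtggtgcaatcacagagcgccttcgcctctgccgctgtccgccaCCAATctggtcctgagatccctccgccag
Insig1, chr5:28071162-28071411, plus strand: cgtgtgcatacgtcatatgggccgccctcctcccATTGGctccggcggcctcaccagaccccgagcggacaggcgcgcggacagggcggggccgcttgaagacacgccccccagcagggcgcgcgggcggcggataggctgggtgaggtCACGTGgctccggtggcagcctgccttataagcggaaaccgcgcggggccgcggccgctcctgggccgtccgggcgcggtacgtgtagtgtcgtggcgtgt
Fasn, chr11:120824548-120824797, minus strand: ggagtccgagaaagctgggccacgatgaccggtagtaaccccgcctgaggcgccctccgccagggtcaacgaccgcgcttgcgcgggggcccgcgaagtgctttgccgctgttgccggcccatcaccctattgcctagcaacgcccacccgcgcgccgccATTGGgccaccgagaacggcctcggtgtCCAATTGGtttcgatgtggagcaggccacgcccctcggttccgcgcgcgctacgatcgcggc
RefSeq windows were matched for 28 of the 35 genes; Fads1, Scd2, Sqle, Fdft1, Stard4, Fdps and Scd1 had no entry in the table used. The 28 genes had 36 windows, since some have more than 1 start. CCAAT occurred in 24 of the 36 (66.7%, before 23 genes), and in 33.8% of all 32851 windows of the table. TCACNCCAC occurred in 1 of the 36 (2.78%), that of Hmgcs1, and in 1.05% of all windows. CACGTG occurred in 6 of the 36 (16.7%, before Dhcr7, Elovl5, Hsd17b7, Insig1, Sc5d and Scap), and in 6.02% of all windows. These are matches of letters only, set against all windows and not those of expressed genes alone. Whether the motifs bear on the levels of the genes was not tested.

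Total counts per tumor lay between 9927942 and 14480593, and levels are given as CPM, a gene's count scaled to the size of the library with TMM factors. The epithelial keratin Krt8 was abundant in every tumor, from 1631 to 3294 CPM, as was the epithelial cadherin Cdh1, from 559.9 to 2236 CPM. The lung lineage factor Nkx2-1 was present in all, from 17.7 to 132 CPM, whereas the alveolar marker Sftpc lay between 0 and 5.95 CPM and Epcam between 0.163 and 4.63 CPM. The fragments were whole tissue, in which fewer cells of a type and less RNA per cell cannot be told apart.

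No lipid synthesis gene passed the test for a difference between liraglutide and vehicle tumors. By edgeR's quasi-likelihood test with Benjamini-Hochberg adjustment the smallest adjusted p among the 35 was 0.482, and the share of all tested genes past an adjusted p of 0.05 was 0.00%. By DESeq2 the smallest adjusted p among the 35 was 0.256, when 40 of all tested genes (0.229%) passed. At an unadjusted p under 0.05 in edgeR, 2 of the 35 were higher with liraglutide (Ebp and Srebf1), against 3.97% of all tested genes, and 1 was lower (Msmo1), against 5.62%. In no gene of the list were the groups separate, which for all tested genes held in 0.607% with the liraglutide tumors higher and in 0.888% with them lower. A log2 fold change above 0 was found in 22 of the 35 genes, and in 47.4% of all tested genes.

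**Figure D1:**
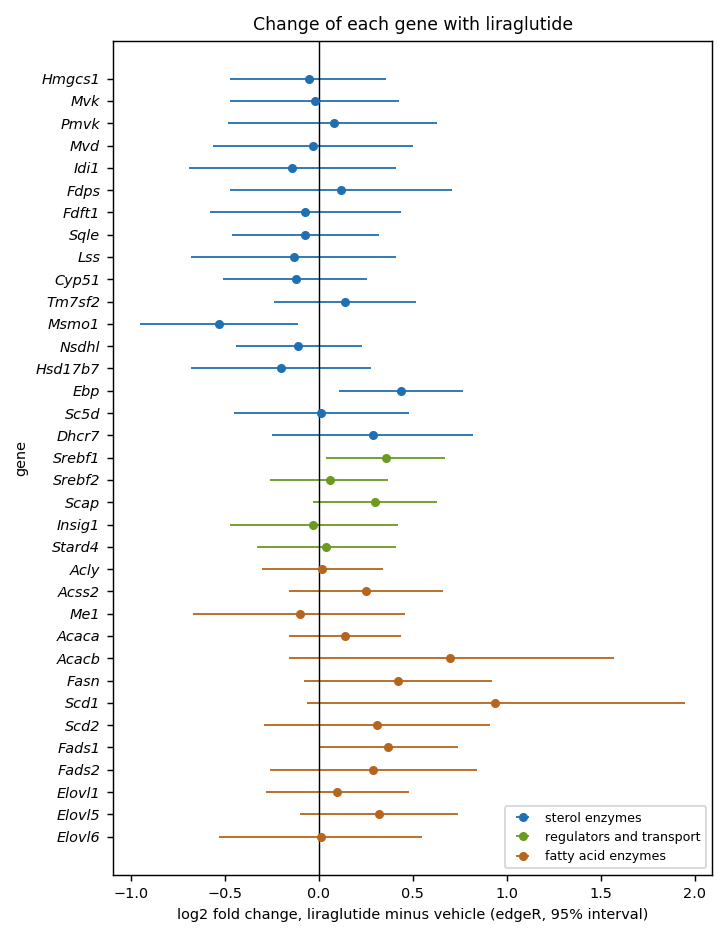
Log2 fold change of liraglutide over vehicle for each of the 35 genes (points, edgeR, 5 tumors a group) with its 95% confidence interval (bars), in pathway order and colored by class. The intervals of Msmo1, Ebp and Srebf1 lie to one side of 0, and most fatty acid enzymes have points to the right of 0 with intervals that cross it.

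Fold changes of the sterol enzymes lay around 0 and those of the fatty acid enzymes mostly above it. Of the 17 sterol enzymes, 6 had a positive log2 fold change and 11 a negative one, with a median of -0.05. Of the 13 fatty acid enzymes, 12 had a positive one, all but Me1, with a median of 0.29. The 5 regulators and carrier had a median of 0.06, which ran from -0.03 without vehicle tumor 4 to 0.18 without vehicle tumor 3. All tested genes had a median of -0.02. The counts of both enzyme classes depended on single tumors. Without vehicle tumor 3, 15 of 17 sterol enzymes were positive, with a median of 0.12, and 13 of 13 fatty acid enzymes, with a median of 0.38. Without liraglutide tumor 5, 4 of 17 sterol enzymes and 10 of 13 fatty acid enzymes were positive, with medians of -0.13 and 0.12.

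Hmgcs1, the synthase that joins acetyl-CoA to acetoacetyl-CoA early in the mevalonate pathway, had the most abundant RNA of this step. Hmgcs1 lay at 189, 154, 249, 132 and 141 CPM in vehicle tumors 1 to 5, and at 176, 137, 132, 185 and 205 CPM in liraglutide tumors 1 to 5. Vehicle tumor 3 held the highest level, and the lowest value of each group was 132 CPM. Its log2 fold change was -0.05 (SE 0.19), with a 95% interval from -0.47 to 0.36. The other 5 genes of the step make, phosphorylate, decarboxylate or join the isoprenoid units. The kinase Mvk was at 13.7 ± 3.45 CPM (SD) in vehicle and 13.5 ± 3.47 in liraglutide tumors, and the kinase Pmvk at 16.3 ± 6.59 and 17.2 ± 3.96 CPM. The decarboxylase Mvd was at 15.8 ± 5.2 and 15.5 ± 3.63 CPM, and the isomerase Idi1 at 29.1 ± 9.74 and 26.3 ± 7.73 CPM. All 6 genes of the step were highest in vehicle tumor 3, and their log2 fold changes ran from -0.14 (Idi1) to 0.12 (Fdps).

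Fdps, the farnesyl diphosphate synthase, was listed at only 2.31 ± 0.876 CPM in vehicle and 2.5 ± 0.466 CPM in liraglutide tumors, from 17 to 39 counts a tumor. It shares stretches of at least 200 bases and 95% identity with 4 pseudogenes in the annotation, so its level in these counts is uncertain. Acaca, Elovl6, Fdft1, Idi1 and Me1 also have such a pseudogene, with at most 321 counts over all tumors for any of them, against at least 3251 for the genes themselves.

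Squalene synthesis and closure to lanosterol also peaked in vehicle tumor 3. Sqle, the squalene epoxidase, lay at 127, 109, 177, 90.1 and 142 CPM in the vehicle tumors and at 133, 105, 102, 129 and 145 CPM in the liraglutide tumors. The liraglutide values all fell inside the vehicle range. Its log2 fold change was -0.07 (SE 0.18). Fdft1, the squalene synthase, was at 83.7 ± 31.1 CPM with vehicle and 79.7 ± 17.6 CPM with liraglutide, and Lss, the lanosterol synthase, at 44.4 ± 15.8 and 40.5 ± 9.62 CPM. All 3 genes were highest in vehicle tumor 3 and no difference between the groups beyond the spread of the tumors was found (edgeR adjusted p from 0.869 to 0.934).

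The steps from lanosterol to cholesterol held the only sterol enzymes with an unadjusted p under 0.05, and they lay in opposite directions. Msmo1, the methylsterol oxidase (ENSMUSG00000031604.10, GRCm39 chromosome 8, 65170603 to 65186830, minus strand), lay at 224, 214, 279, 128 and 174 CPM in vehicle tumors and at 150, 161, 107, 146 and 139.8 CPM in liraglutide tumors. Of the vehicle tumors, 4 lay above every liraglutide tumor, and vehicle tumor 4 lay below 4 liraglutide tumors. The means were 204 ± 56.5 and 141 ± 20.4 CPM, a log2 fold change of -0.53 (SE 0.19, edgeR p = 0.0172, adjusted p = 0.482, two-sided exact permutation p = 0.0635). The edgeR p stayed between 0.00139 and 0.0494 as each tumor was left out. With 1 surrogate variable the log2 fold change was -0.34.

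Ebp, the sterol isomerase of the same stretch of the pathway, lay the other way. Ebp (ENSMUSG00000031168.14, GRCm39 chromosome X, 8050773 to 8059795, minus strand) lay at 25.8, 30.1, 41.7, 36.6 and 31.2 CPM in vehicle tumors and at 47.3, 37.2, 50.3, 38.4 and 51.1 CPM in liraglutide tumors. Liraglutide tumors 1, 3 and 5 were above all vehicle tumors, and the other 2 were below vehicle tumor 3 alone. The means were 33.1 ± 6.16 and 44.9 ± 6.62 CPM, a log2 fold change of 0.44 (SE 0.15, edgeR p = 0.0132, adjusted p = 0.482, two-sided exact permutation p = 0.0317). The edgeR p stayed between 0.00437 and 0.035 as each tumor was left out.

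The remaining enzymes of these steps had log2 fold changes between -0.20 (Hsd17b7) and 0.29 (Dhcr7). That of Hsd17b7 was -0.01 without vehicle tumor 3, and that of Dhcr7 was 0.05 without liraglutide tumor 5. Cyp51, the lanosterol demethylase, was at 169.6 ± 46.5 CPM in vehicle and 156 ± 24.2 CPM in liraglutide tumors, and Nsdhl, a sterol dehydrogenase, at 40.2 ± 8.25 and 37.3 ± 5.13 CPM. Hsd17b7, a keto-reductase, was at 32.6 ± 9.66 and 28.4 ± 6.47 CPM, and Sc5d, a desaturase, at 75.8 ± 26.5 and 76.5 ± 12.9 CPM. Tm7sf2, a sterol reductase, was at 9.5 ± 1.79 and 10.5 ± 1.78 CPM, and Dhcr7, which performs a last reduction to cholesterol, at 12.1 ± 3.13 and 14.7 ± 5.15 CPM. The edgeR unadjusted p of these genes ran from 0.266 (Dhcr7) to 0.952 (Sc5d).

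**Figure D2:**
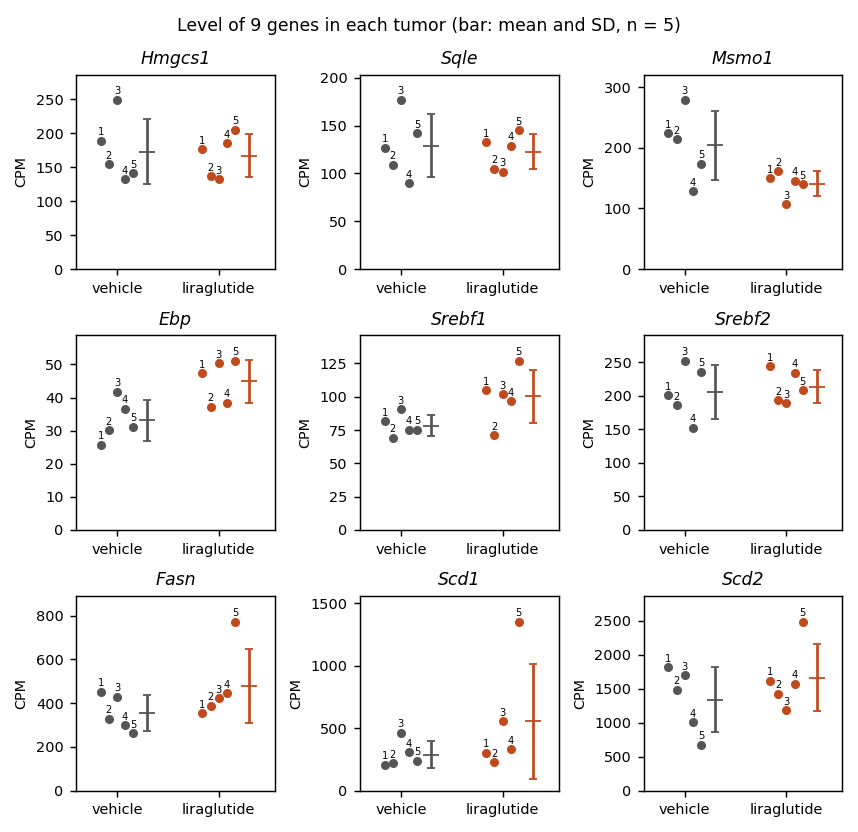
Levels of 9 genes in each tumor in CPM (points, numbered by tumor; mean and SD beside them, 5 tumors a group, axes from 0). Vehicle tumor 3 is the highest for Hmgcs1, Sqle, Msmo1 and Srebf2, and liraglutide tumor 5 for Ebp, Srebf1, Fasn, Scd1 and Scd2.

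Among the regulators, Srebf1 was higher with liraglutide at an unadjusted p under 0.05 and Srebf2 was close to equal. Srebf1 (ENSMUSG00000020538.15, GRCm39 chromosome 11, 60089913 to 60113407, minus strand), the factor tied mainly to fatty acid genes, lay at 81.4, 69.2, 90.7, 75.3 and 75.3 CPM in vehicle tumors and at 105, 71.1, 102, 96.7 and 127 CPM in liraglutide tumors. All liraglutide tumors but tumor 2 were above every vehicle tumor. The log2 fold change was 0.36 (SE 0.14, edgeR p = 0.0295, adjusted p = 0.503, two-sided exact permutation p = 0.0556), and the edgeR p ran from 0.0023 to 0.0832 as each tumor was left out. It exceeded 0.05 without vehicle tumor 2 (0.0685), 4 (0.0522) or 5 (0.0512) and without liraglutide tumor 1 (0.0578), 3 (0.0518) or 5 (0.0832), and was 0.0703 with 1 surrogate variable.

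Srebf2, the factor tied mainly to sterol genes, lay at 201, 186, 252, 152 and 236 CPM in vehicle tumors and at 244, 193, 189, 234 and 208 CPM in liraglutide tumors, all inside the vehicle range. Its log2 fold change was 0.06, with a 95% interval from -0.26 to 0.37. Insig1, itself a target of these factors, lay at 145, 157, 204, 99.2 and 107 CPM in vehicle tumors and at 133, 139, 112, 128 and 185 CPM in liraglutide tumors. These too lay inside the vehicle range, with a log2 fold change of -0.03 (SE 0.20). Scap was at 36.5 ± 6.44 CPM with vehicle and 44.9 ± 6.87 CPM with liraglutide (log2 fold change 0.30, SE 0.15, edgeR p = 0.071, two-sided exact permutation p = 0.103), and 4 of 5 liraglutide tumors were above all vehicle tumors. With 1 surrogate variable its log2 fold change was 0.16. Stard4, a sterol carrier, lay at 115, 97.8, 158, 91.4 and 116 CPM in vehicle tumors and at 117, 96.8, 99.5, 131 and 149 CPM in liraglutide tumors, again inside the vehicle range.

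For the suppliers of acetyl-CoA and NADPH no difference beyond the spread of the tumors was found. Me1, the malic enzyme, lay at 229, 192, 456, 349 and 358 CPM in vehicle tumors and at 306, 167, 381, 324 and 296 CPM in liraglutide tumors. Vehicle tumor 3 was again highest, while tumor 2 of each group was the lowest of its group. The log2 fold change of Me1 was -0.10 (SE 0.26), and -0.34 with 1 surrogate variable. The citrate lyase Acly was at 267 ± 54.2 and 270.4 ± 29.3 CPM, and the acetyl-CoA synthetase Acss2 at 10.1 ± 2.11 and 12 ± 2.33 CPM.

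The genes of fatty acid synthesis proper had positive log2 fold changes, and liraglutide tumor 5 was the highest for each. Fasn, the fatty acid synthase, lay at 453, 328, 430.2, 300.5 and 263 CPM in vehicle tumors and at 353, 389, 423, 445 and 772 CPM in liraglutide tumors. Only liraglutide tumor 5 lay above the vehicle range. The log2 fold change of 0.42 (SE 0.23, edgeR p = 0.0885, adjusted p = 0.568, two-sided exact permutation p = 0.151) became 0.19 without that tumor. Acaca, the acetyl-CoA carboxylase that makes malonyl-CoA for synthesis, lay at 145, 124, 137, 106 and 102 CPM in vehicle tumors and at 116, 132, 124, 134 and 170.1 CPM in liraglutide tumors. Tumor 5 was again the only one outside the vehicle range, with a log2 fold change of 0.14 (SE 0.13) that became 0.05 without it. Acacb, the mitochondrial carboxylase, was scarce, at 1.38 ± 0.733 and 2.21 ± 0.96 CPM (9 to 52 counts a tumor), with a log2 fold change of 0.70 (SE 0.39, edgeR p = 0.101, two-sided exact permutation p = 0.127) that became 0.40 without liraglutide tumor 5.

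The stearoyl-CoA desaturases, which put the first double bond into saturated fatty acids, included the most abundant RNA of the list and the largest fold change of the model with treatment as its only term and all tumors. Scd2 had the highest level per kb of exon of the list in all 10 tumors. Scd1 (ENSMUSG00000037071.3, GRCm39 chromosome 19, 44382894 to 44399154, minus strand) lay at 207, 221, 466, 307 and 241 CPM in vehicle tumors and at 304, 227, 557, 330.5 and 1354 CPM in liraglutide tumors. Liraglutide tumors 3 and 5 were above all vehicle tumors, and the other 3 lay within the vehicle range. The means were 288 ± 107 and 555 ± 464 CPM, a log2 fold change of 0.94 (SE 0.46, edgeR p = 0.0623, adjusted p = 0.536, two-sided exact permutation p = 0.198). Leaving out liraglutide tumor 5 gave 0.31, below the 0.40 of Acacb and of Ebp without that tumor, and leaving out vehicle tumor 3 gave 1.20. With 1 surrogate variable the value was 0.44, below those of Scd2 (0.57), Fads2 (0.54), Fads1 (0.53), Acacb (0.49) and Fasn (0.45).

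Scd2 (ENSMUSG00000025203.6, GRCm39 chromosome 19, 44281613 to 44295303, plus strand) lay at 1818, 1487, 1699.6, 1011 and 678 CPM in vehicle tumors and at 1621, 1426, 1189, 1575 and 2489 CPM in liraglutide tumors. Vehicle tumors 4 and 5 were the lowest, liraglutide tumor 5 was the highest, and the groups overlapped otherwise (log2 fold change 0.31, SE 0.27, edgeR p = 0.28, two-sided exact permutation p = 0.325). Without liraglutide tumor 5 its log2 fold change was 0.12. Scd2 alone made up 17.9% to 34.7% of the summed CPM of the 35 genes in a tumor, and Scd1 3.96% to 17.2%. The ratio of Scd2 to Scd1, each as CPM per kb of exon, ran from 2.7 to 8.4 in vehicle and from 1.76 to 6 in liraglutide tumors. The 2 transcripts share 473 matching bases at 95.6% identity, so a small part of their reads may be exchanged.

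Fads1 and Fads2 place further double bonds into polyunsaturated fatty acids. Fads1 was at 102 ± 24.5 CPM with vehicle and 131 ± 18.7 CPM with liraglutide (log2 fold change 0.37, SE 0.17, edgeR p = 0.0526, two-sided exact permutation p = 0.103), and Fads2 at 73.2 ± 24.8 and 89.2 ± 24.9 CPM (0.29, SE 0.25). Both were highest in liraglutide tumor 5 and lowest in vehicle tumor 5. The log2 fold change of Fads2 became 0.11 without liraglutide tumor 5.

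Of the elongases, which lengthen fatty acids, Elovl5 was the most abundant. It lay at 69.2, 76.6, 121, 121 and 131 CPM in vehicle tumors and at 134, 102, 150.1, 120.4 and 143 CPM in liraglutide tumors. Liraglutide tumors 1, 3 and 5 were above all vehicle tumors and vehicle tumors 1 and 2 were below all others (log2 fold change 0.32, SE 0.19, edgeR p = 0.12, two-sided exact permutation p = 0.167). Elovl1 was at 34.8 ± 9.61 and 37.2 ± 4.1 CPM, and Elovl6 at 62.8 ± 26.4 and 63.2 ± 10.7 CPM, with log2 fold changes of 0.10 and 0.01. As each tumor was left out, the log2 fold change of Elovl1 ran from 0.00 to 0.28 and that of Elovl5 from 0.21 to 0.43, and the latter was 0.14 with 1 surrogate variable.

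Per kb of exon, the list ran over 3 orders of magnitude. Scd2 stood at 199 CPM per kb as a mean over all tumors, followed by Scd1 at 58.5, Me1 at 49.9, Fasn at 35.5, Hmgcs1 at 32.3, Insig1 at 28.9 and Cyp51 at 27.4. Acss2 (0.559), Fdps (0.493) and Acacb (0.176) were the lowest. In the liraglutide tumors the SD of Scd1 was 464 CPM on a mean of 555, so its place next to Me1 and Fasn differed between tumors. By group means, Me1 was above Scd1 and Hmgcs1 above Fasn in vehicle tumors, and both orders turned in liraglutide tumors.

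Single tumors stood out across the list. Vehicle tumor 3 held the highest level of 20 of the 35 genes, among them 14 of 17 sterol enzymes, although 10.4% of all tested genes were highest there. Liraglutide tumor 5 held the highest level of 12 of the 35, among them 8 of 13 fatty acid enzymes, against 9.49% of all tested genes. Vehicle tumor 4 held the lowest level of 12 of the 35, against 11.4% of all tested genes. The summed skeletal muscle markers were highest of their group in the same tumors as the lipid genes, at 249 CPM in vehicle tumor 3 and 339 CPM in liraglutide tumor 5. The summed endothelial markers were also highest of their group there, at 145 and 119 CPM. The summed adipocyte markers stood at 262 CPM in vehicle tumor 3, the highest of all tumors, and at 164 CPM in liraglutide tumor 5. Pparg made up 160.3 and 111 CPM of these sums, and without it they were 102 CPM, again the highest of all tumors, and 53.5 CPM. The median deviation of the sterol enzymes from their means (log2 CPM) was 0.63 in vehicle tumor 3, 0.30 in liraglutide tumor 5 and -0.33 in vehicle tumor 4. For the fatty acid enzymes it was 0.23, 0.46 and -0.36 in these tumors. Liraglutide tumor 3 split the branches, with -0.26 for sterol and 0.12 for fatty acid enzymes.

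**Figure D3:**
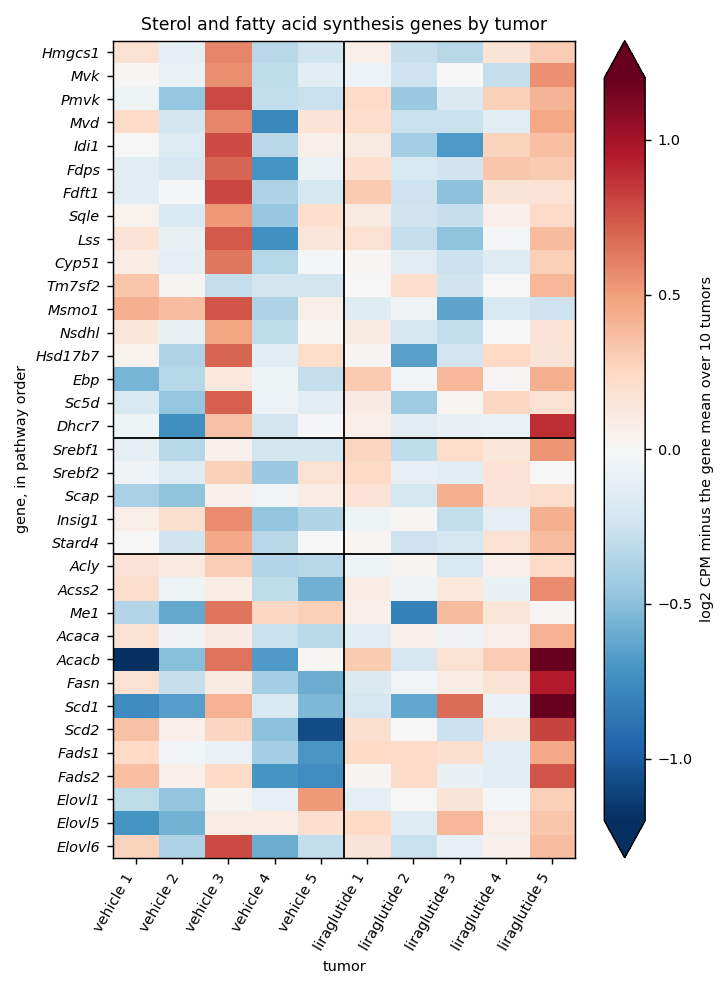
Deviation of each of the 35 genes (rows, in pathway order) from its mean over the 10 tumors (columns), in log2 CPM, with the strongest colors clipped. The column of vehicle tumor 3 is high for most sterol enzymes in the upper block and that of liraglutide tumor 5 for most genes of the lower block.

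With the group means removed, pairs of sterol enzymes had a mean Pearson correlation of 0.65 (Spearman 0.59) over the 10 tumors, and pairs of fatty acid enzymes 0.36 (Spearman 0.33). Pairs across the branches gave 0.44. Pairs of all tested genes gave 0.00, a value that the normalization of each library holds near 0. Without vehicle tumor 3 the sterol pairs gave 0.52 (Spearman 0.49), and the fatty acid pairs gave 0.27 (Spearman 0.18). Without liraglutide tumor 5 the fatty acid pairs gave 0.24 (Spearman 0.23). These are descriptions over 10 tumors that share their libraries. Nsdhl followed the mean of the other sterol enzymes most closely (0.98), and outside the sterol enzymes Stard4 (0.97) and Elovl6 (0.94) did so. Among the sterol enzymes themselves, Msmo1 (0.64), Ebp (0.36) and Tm7sf2 (0.07) had the lowest values, and outside them Elovl5 (0.21), Elovl1 (0.22), Scap (0.25) and Fads1 (0.30) were low as well. Tm7sf2 shares 532 bases of exon with its neighbor Vps51 on the same strand, which had 3475 counts to its 1203. Srebf1 followed the mean of the fatty acid enzymes at 0.83 (Spearman 0.92) and that of the sterol enzymes at 0.71 (Spearman 0.78). Srebf2 followed the sterol enzymes at 0.77 (Spearman 0.81) and the fatty acid enzymes at 0.33 (Spearman 0.27).

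**Figure D4:**
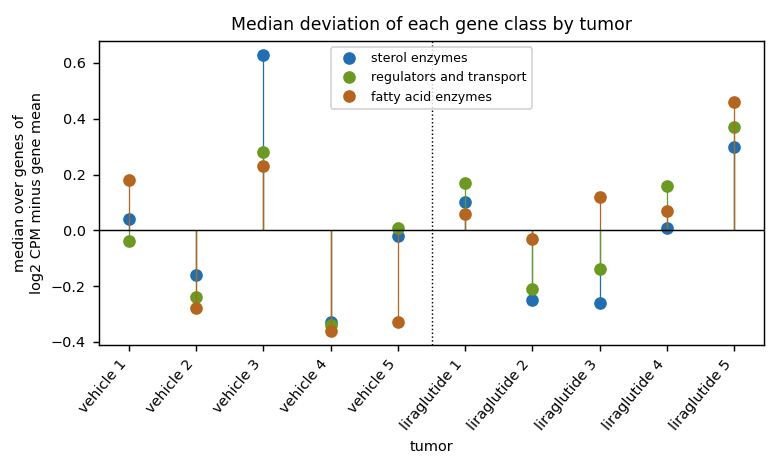
Median over the genes of each class of log2 CPM minus the gene mean, for each tumor (points, with lines to 0). The sterol enzymes peak in vehicle tumor 3 at 0.63 and the fatty acid enzymes in liraglutide tumor 5 at 0.46.

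Counts of 11 genes of the list could take in reads of an overlapping gene. For Tm7sf2 that neighbor lies on the same strand, and for the others the strand setting of the counting matters. The library kit marks strand, but that setting is not given in the sources used here. Cyp51 overlaps Akap9, Fdft1 overlaps Ctsb and Sqle overlaps Washc5, each on the opposite strand and with at least 470 shared bases. Acss2 shares 504 bases with Gss, also on the opposite strand, which had 4706 counts to its 1329. The levels of Cyp51, Fdft1, Sqle and Acss2 are uncertain to that extent, and that of Tm7sf2 is uncertain whatever the strand setting.

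Genes beside the list gave no adjusted call either. Of those named below, Lpcat3, Fabp5, Myh1, Nkx2-1 and Ccnb1 had an unadjusted p under 0.05 in edgeR, as did the keratinocyte markers named. Of 22 tested further genes of sterol and fatty acid synthesis, 11 had a positive log2 fold change and none an unadjusted p under 0.05 in edgeR. Of 12 genes of the liver X receptor (LXR) response and of cholesterol efflux or storage, 9 were positive. Their sums were highest of each group in vehicle tumor 3 (1328 CPM) and liraglutide tumor 5 (1273 CPM). Lpcat3, a phospholipid-remodeling LXR target, was at 65.7 ± 6.73 CPM with vehicle and 81.8 ± 15.9 CPM with liraglutide (log2 fold change 0.32, SE 0.14, edgeR adjusted p = 0.515). Of 10 genes of triglyceride synthesis and lipid droplets 6 were positive, and of 13 of fatty acid uptake and oxidation 11. Fabp5, a fatty acid binding protein, was at 13.6 ± 3.11 and 20.3 ± 7.03 CPM (0.58, SE 0.24, edgeR adjusted p = 0.512), with its highest level, 31.4 CPM, in liraglutide tumor 2.

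Markers of other tissues were measured in the same tumors. The 10 adipocyte markers summed to 131 to 262 CPM in vehicle and 121 to 252 CPM in liraglutide tumors, and 2 of the 6 tested were positive. The defining adipocyte gene Adipoq lay between 0.259 and 6.3 CPM, highest in vehicle tumor 3, and Plin1 between 0.0691 and 2.94 CPM, highest there too. The 6 skeletal muscle markers were all positive and summed to 37.5 to 249 CPM in vehicle and 83.3 to 339 CPM in liraglutide tumors, with the highest sum of each group in vehicle tumor 3 and liraglutide tumor 5. The endothelial sums were highest of their groups in the same tumors. Myh1, a fast myosin, was at 17.3 ± 7.59 and 34.8 ± 16.8 CPM (log2 fold change 1.01, edgeR adjusted p = 0.499).

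The 5 keratinocyte markers measured (Lor was not matched) were all positive, and their sums were 8.98 to 18.8 CPM with vehicle and 7 to 209.5 CPM with liraglutide. They were high in liraglutide tumors 2, 4 and 5 and low in 1 and 3. Krt14, Krt1, Krt5 and Dsg3 had edgeR unadjusted p between 0.016 and 0.0293, with Krt1 and Krt5 at 0 in several tumors of both groups. Of 7 macrophage markers 6 were positive, with a median of 0.23. Their sums, 394 to 939 CPM with vehicle and 403 to 581 CPM with liraglutide, held more Mrc1 (log2 fold change -0.74) than all other markers together in each tumor but liraglutide tumor 5. Without Mrc1 they were 115 to 211 and 125 to 265 CPM. Fibroblast markers summed to 1374 to 3461 and 1856 to 3508 CPM, with 3 of 6 positive. Of the other lists, 2 of 3 tested neutrophil markers, 5 of 5 T and NK cell markers, 3 of 5 endothelial markers and 4 of 7 lung epithelial markers were positive. Nkx2-1 lay at 17.7 to 95.4 CPM with vehicle and 52.2 to 132 CPM with liraglutide, groups that overlapped (log2 fold change 0.99, edgeR adjusted p = 0.52).

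None of 7 proliferation markers was positive, with a median of -0.38. Ccnb1, a mitotic cyclin, was at 51.8 ± 12.6 CPM with vehicle and 37.4 ± 6.87 CPM with liraglutide (log2 fold change -0.47, edgeR adjusted p = 0.5). The part of muscle, skin, fat or cycling cells in the levels of the lipid synthesis genes was not tested.

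**Figure D5:**
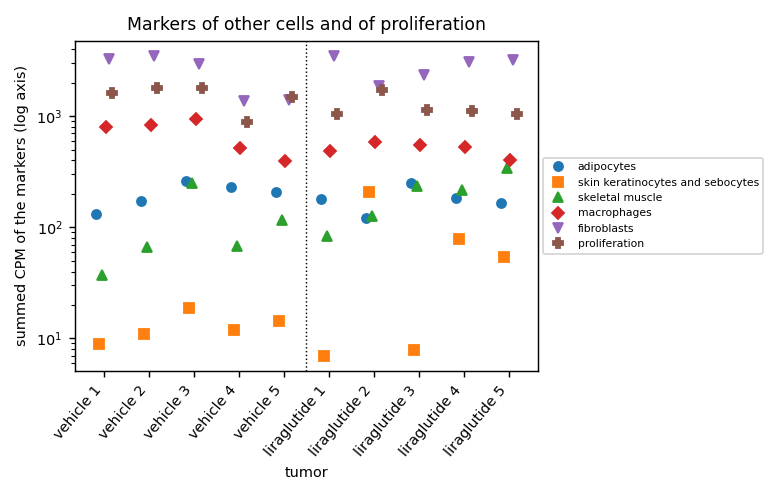
Summed CPM of marker genes of 5 cell types and of proliferation in each tumor (points, log axis). The skeletal muscle sums of vehicle tumor 3 (249 CPM) and liraglutide tumor 5 (339 CPM) are the highest of their groups, and the keratinocyte sums are high in liraglutide tumors 2, 4 and 5. Endothelial sums, also highest of their groups in vehicle tumor 3 and liraglutide tumor 5, are not drawn.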

How the data were processed

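RNA of 10 tumors was sequenced after ribosomal depletion. Per the methods of the study, the authors aligned reads to GRCm39 (Bowtie, TopHat), and featureCounts gave the count of each gene. The deposited values are whole numbers with unequal totals, taken as raw counts without normalization. The submitters' processing notes name mm10 and GRCh38 and FastQC, so the build could not be settled. Gene positions are those of GENCODE M39 on GRCm39, to which 93.38% of identifiers (98.31% of counts) matched.

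Genes were filtered (filterByExpr), normalized by TMM and tested with treatment alone by edgeR 4.0.16 in R 4.3.3, with Benjamini-Hochberg adjustment over 17464 genes at 0.05. Single genes were also compared by two-sided exact permutation of log2 CPM (prior count 2), whose lowest possible p with 5 tumors a group is 0.00794. Groups and tumor numbers came from the sample titles. Nothing in the labels gives the mouse of each tumor, so p-values measure the spread between these samples. Alternatives were DESeq2 1.42.0, its size factors, scaling by library size only, no filter beyond 1 count, a replicate block, 1 surrogate variable (sva 3.50.0) and each tumor left out. At 3 counts the floor lay between 0.207 and 0.315 CPM, for counting error only.

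The 35 genes and all lists were chosen with earlier results of these data known. Every gene of the 35 is named. Values in every tumor are given for genes with unadjusted p under 0.05, for the most abundant gene of each step, and for Hmgcs1, Sqle, Srebf1, Srebf2, Insig1, Acaca, Fasn, Scd1 and Scd2. Of other lists, up to 4 genes with unadjusted p under 0.05 are named, smallest p first. Adipoq, Plin1, Pparg, Mrc1, Krt8, Cdh1, Sftpc and Epcam were named after their values were seen. Some details of the genotype of the cell line are not reported here.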

Additional observations from a re-analysis of the deposited data

Results flagged for a closer look

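Each of the 35 genes was checked in each group for a tumor far from the other 4, which made 70 groups. In 1 of them a tumor stood apart: Dhcr7 was at 23.8 CPM in liraglutide tumor 5, and between 11.8 and 13.6 CPM in the other 4 liraglutide tumors, a gap that on the log2 scale was 0.798 of the group's range. By chance about 1 in 20 groups is marked in this way. Without that tumor the log2 fold change of Dhcr7 moved from 0.29 to 0.05.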

How the results depend on the processing

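No gene of the 35 had an adjusted p under 0.05 in any alternative run. The sign of the log2 fold change held in every alternative for 16 genes and turned in at least 1 for 19, each with a main value of at most 0.14 in size. Genes higher at unadjusted p under 0.05 numbered 2 (3.97% of all tested genes), but 4 with DESeq2 (4.63%; also Scd1 and Fads1), 4 with library size alone (5.67%; also Scap and Fads1), 4 with all genes of at least 1 count (3.32%; also Scd1 and Fads1), 3 with 1 surrogate variable (5.37%; Ebp, Fads1 and Fads2, not Srebf1), and 1 to 4 as each tumor was left out: 1 without vehicle tumor 2 (2.50% of all tested genes) or 4 (7.12%) or liraglutide tumor 3 (2.67%) or 5 (2.21%), and 4 without vehicle tumor 3 (3.74%) or liraglutide tumor 2 (5.85%) or 4 (3.24%). Positive sterol enzymes numbered 6, and 4 to 15 as each tumor was left out, with 15 without vehicle tumor 3.

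The signs turned with library size alone for Hmgcs1 (0.01), Mvk (0.04), Mvd (0.03) and Insig1 (0.04), and with 1 surrogate variable for Hmgcs1 (0.02), Mvd (0.02), Fdft1 (0.03), Sc5d (-0.06), Insig1 (0.12) and Elovl1 (-0.04). As each tumor was left out, the log2 fold change ran from -0.13 to 0.12 for Hmgcs1, -0.18 to 0.15 for Mvk, -0.02 to 0.36 for Pmvk, -0.17 to 0.14 for Mvd, -0.25 to 0.08 for Idi1, 0.00 to 0.36 for Fdps, -0.16 to 0.19 for Fdft1, -0.17 to 0.08 for Sqle and -0.28 to 0.08 for Lss. It ran from -0.21 to 0.06 for Cyp51, -0.18 to 0.02 for Nsdhl, -0.09 to 0.25 for Sc5d, -0.03 to 0.14 for Srebf2, -0.15 to 0.14 for Insig1, -0.05 to 0.18 for Stard4, -0.05 to 0.11 for Acly, -0.24 to 0.07 for Me1 and -0.11 to 0.27 for Elovl6. The cause was not tested.

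Tumor numbers were not taken as a pairing, since not every pair of same-numbered tumors deviated together. The mean correlation was 0.26 for the same number and -0.068 for different numbers, 3 of 5 numbers had one over 0.1 (from -0.075 to 0.565), and 3 of 10 tumors correlated best with their own number. With the replicate block, 5 genes were higher (Ebp, Srebf1, Scap, Fads1 and Elovl5, against 7.50% of all tested genes) and 1 was lower (Msmo1, against 7.31%) at unadjusted p under 0.05. Of the markers, 1 of 5 for keratinocytes (4 without the block) and 5 of 6 for skeletal muscle (1 without it) then had an unadjusted p under 0.05, as did 4 of 12 genes of the LXR list (1 without it), 2 of 5 T and NK cell (0), 2 of 7 lung epithelial (1) and 1 of 7 macrophage markers (0). Acacb (0.73) then had a larger log2 fold change than Scd1 (0.65). The lowest adjusted p of the list was then 0.246, and Mvd (0.00) and Insig1 (0.00) turned in sign. The exact p over the paired differences was 0.0625 for Ebp, Srebf1, Scap and Scd1. This is the smallest that 5 pairs allow and is reached whenever all 5 differences share a sign. The share of all tested genes at that value was not computed.

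The spread between 5 tumors a group limited every comparison, and counts were lowest for Acacb and Fdps.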
